A study of Mus musculus with 6 samples.

Results

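The lysosomal genes are 42 mouse genes listed by name as hydrolases, membrane proteins and regulators of the lysosome, out of 23284 genes counted in each library. All 42 were present by symbol, and 40 of them were among the 13390 genes that passed the filter on low counts and were tested. Lipa was already known to differ between the groups when the list was drawn up, so its own change is the starting point of the comparison and not an independent finding.

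RNA was sequenced from preSC cells, a mouse line that the labels describe as a precursor of small cell lung cancer, with poly(A) selection. In the shCrebbp group, 3 libraries carried hairpins 1, 2 and 5 against Crebbp, which encodes the acetyltransferase CREB-binding protein, with 1 library per hairpin. In the control group, 2 libraries carried the empty vector (shEmpty 1 and 2) and 1 carried a non-silencing hairpin (shNS). All 6 were made with the lentiviral vector pLKO.1, so the control cells had been transduced too. Whether libraries came from separate cultures is not labelled, and p-values therefore reflect library-to-library spread alone, which may be technical and in the shCrebbp group includes differences between hairpins. Libraries held 13622020 to 19804949 reads in genes. The targeted gene, Crebbp, stood at 46.2, 58.3 and 48.9 CPM (read counts scaled to sequencing depth) with hairpins 1, 2 and 5, against 66.2, 69.6 and 69.4 CPM in shEmpty 1, shEmpty 2 and shNS. All 3 hairpin libraries lay below all 3 controls, with a log2 fold change of -0.42 ± 0.10 (SE) that missed the threshold (edgeR adjusted p = 0.0999).

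Lysosomes break down proteins, lipids and glycans with acid hydrolases that are delivered from the Golgi, mostly through mannose 6-phosphate tags, into a compartment acidified by the V-ATPase. Many of their genes share a promoter element, the CLEAR element, that is bound by the MiT/TFE transcription factors such as TFEB and TFE3. Lysosomal acid lipase, the product of Lipa, hydrolyses cholesteryl esters and triglycerides taken up with lipoproteins. The free cholesterol is then carried out of the lysosome by NPC2 and NPC1.

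Lipa was called higher with the Crebbp hairpins, and edgeR called no other tested member. Of the 40 tested members, 1 was higher and 0 were lower at an adjusted p of 0.05 (edgeR), where 0.276% of all tested genes were called higher and 0.978% lower. At an unadjusted p of 0.05, 4 members were higher (Lipa, Smpd1, Man2b1 and Npc2) and 1 was lower (Ctsz), or 12.5% of the tested members against 16.5% of all tested genes. DESeq2 called 2 members, Lipa higher and Ctsz lower (adjusted p = 0.00522), and 5.45% of all genes. The median log2 fold change was 0.010 over the 40 members and 0.015 over all tested genes. In 10 tested members the hairpin libraries all lay on one side of the controls (5 above and 5 below). This was a share of 25%, against 22.4% of all tested genes.

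**Figure D1:**
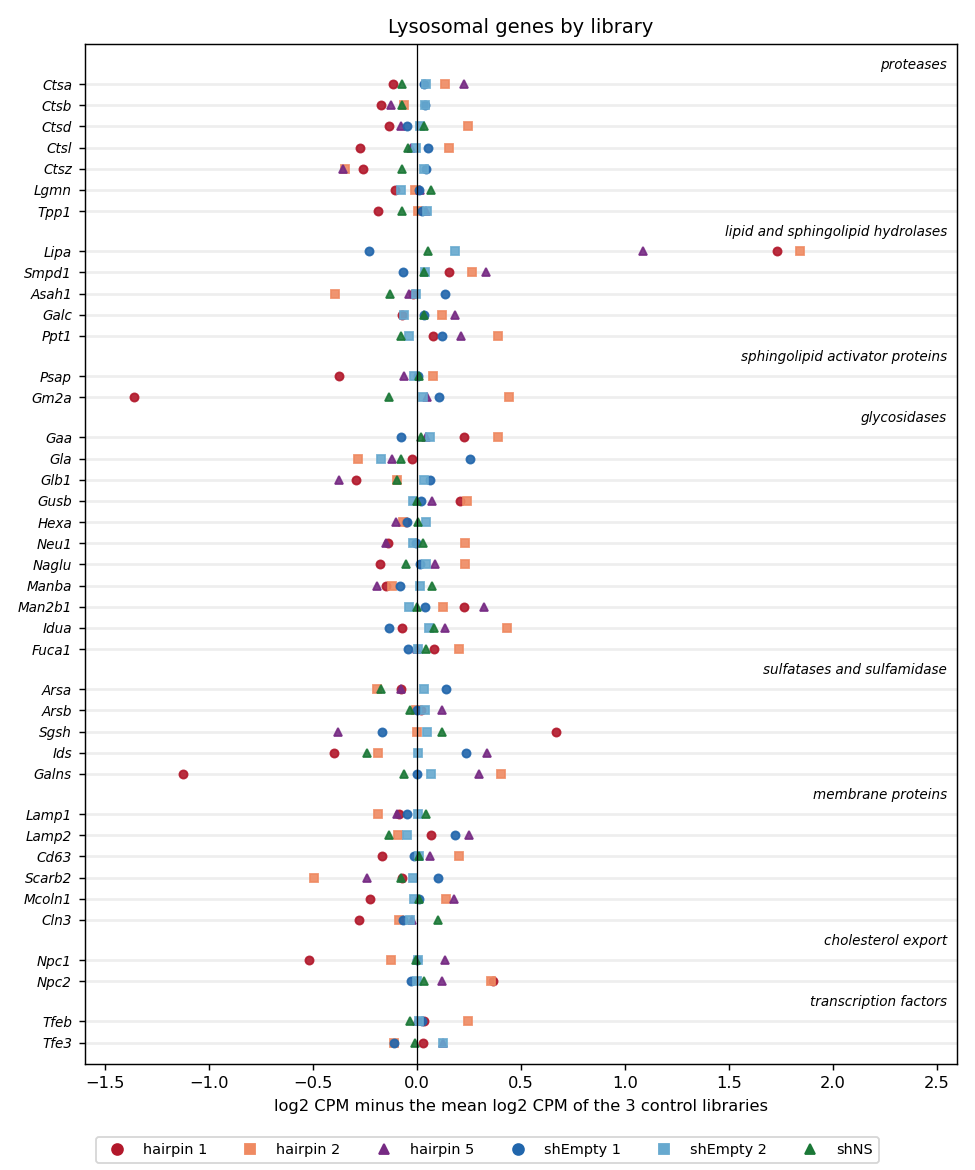
Level of each of the 40 tested lysosomal genes in each library, as log2 CPM minus the mean log2 CPM of the 3 control libraries, grouped by role. Lipa lies at 1.73, 1.84 and 1.09 with hairpins 1, 2 and 5. The highest value of any other tested member is 0.67, for Sgsh with hairpin 1. The untested Ctsh and Ctss are not drawn.

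The Lipa difference was carried by all 3 hairpins. Lipa stood at 12.9, 14.0 and 8.23 CPM with hairpins 1, 2 and 5, from 176, 196 and 121 reads, against 3.22, 4.33 and 3.94 CPM in shEmpty 1, shEmpty 2 and shNS, from 63, 71 and 54 reads. The groups did not overlap, and hairpin 5 lay below the other 2 hairpins. Its exact 95% Poisson interval, which covers counting error only, was 6.83 to 9.84 CPM, against upper bounds of 4.12, 5.46 and 5.14 CPM in the controls. The group means were 11.7 ± 3.05 CPM with the hairpins and 3.83 ± 0.563 CPM in controls (SD, n = 3 each), a 3.06-fold difference (log2 fold change 1.61 ± 0.25 SE, 95% interval 1.05 to 2.18, edgeR adjusted p = 0.0277). It ranked at place 103 from the top among all tested genes by log2 fold change. The call was lost in edgeR when any control library or hairpin 2 was left out: the adjusted p was then 0.160, 0.170 and 0.0985 without shEmpty 1, shEmpty 2 and shNS, and 0.0561 without hairpin 2. Without hairpins 1 and 5 the call was kept (adjusted p = 0.0337 and 0.0140). Over all 6 omissions the log2 fold change was 1.46 to 1.804 in edgeR, and DESeq2 called Lipa under each of them. No annotated exon of another gene overlaps Lipa in the annotation at hand.

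**Figure D2:**
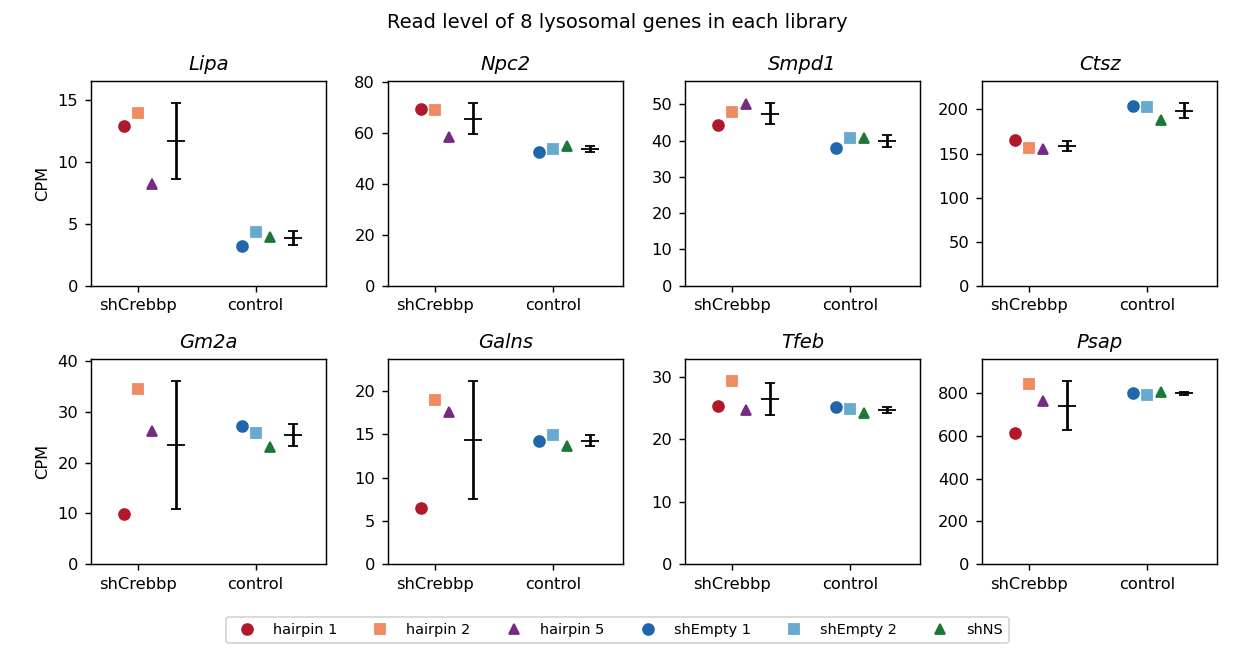
CPM of 8 lysosomal genes in each library on axes that start at 0, with the group mean and SD (n = 3) beside the points. Lipa, Npc2 and Smpd1 lie above all controls with every hairpin, and Ctsz lies below them. Gm2a and Galns are low with hairpin 1 at 9.77 and 6.47 CPM.

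The other 39 tested members lay on both sides of 0. Their log2 fold changes ran from -0.32 (Ctsz) to 0.28 (Npc2), 20 of them positive and 19 negative. The 95% intervals of all 39 lay within a 2-fold change in either direction, which held for 83% of all tested genes. Of the 39, 36 lay within a 1.5-fold change, which held for 62.2% of all tested genes. The members and all tested genes were not matched for read level, and Lipa was left out of the members alone. The highest upper bound among them was 0.78 (Galns), below the lower bound of 1.05 for Lipa. These intervals are not adjusted for the number of genes, and they rest on a spread that edgeR shares across genes.

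**Figure D3:**
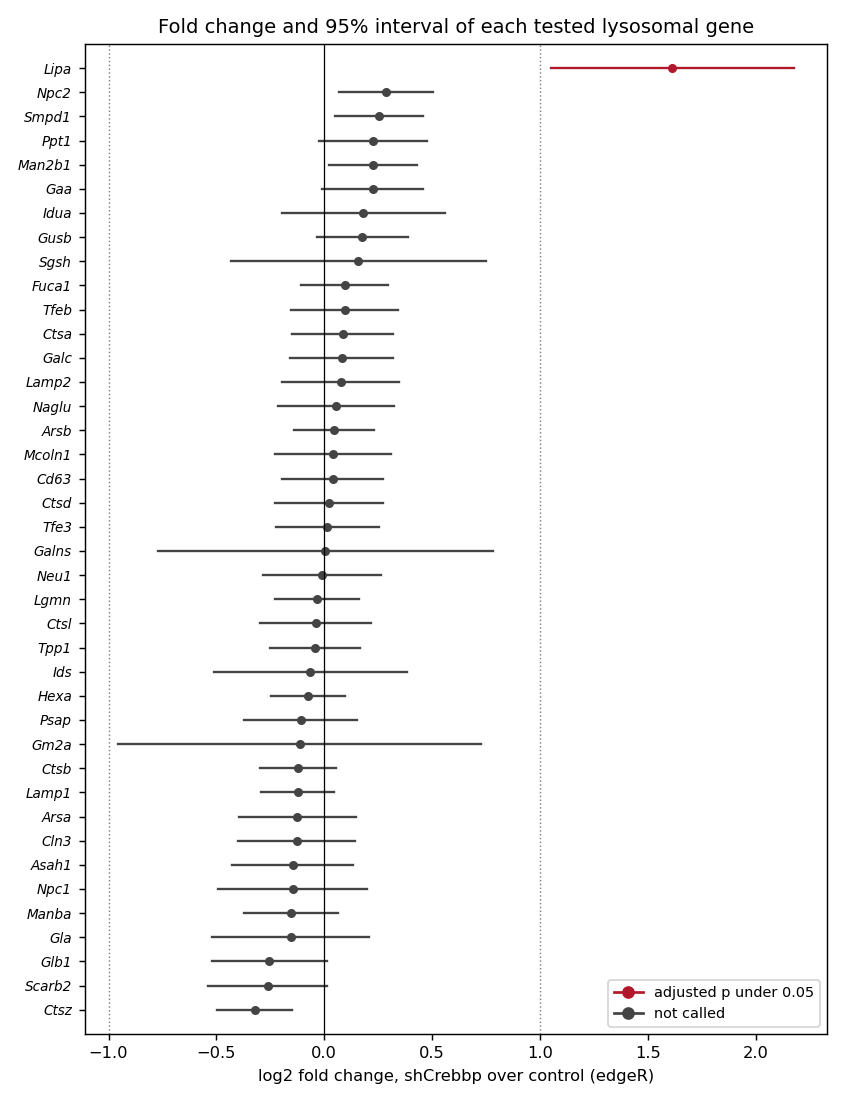
Log2 fold change (shCrebbp over control, edgeR) with its 95% interval for each of the 40 tested lysosomal genes, in order of size. Dotted lines mark 2-fold changes, and the Lipa interval of 1.05 to 2.18 lies wholly beyond the upper one.

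Averaged over the 39 members other than Lipa, log2 CPM came to 5.75, 5.92 and 5.89 for hairpins 1, 2 and 5, beside 5.89, 5.88 and 5.84 in shEmpty 1, shEmpty 2 and shNS. The groups overlapped, and the group means differed by -0.015, less than the SD of 0.095 between the hairpin libraries. With Lipa included, the means were 5.69, 5.87 and 5.82 with the hairpins and 5.78, 5.78 and 5.75 in controls. Log2 CPM of Lipa minus the mean of the other 39 members came to -2.04, -2.11 and -2.83 with hairpins 1, 2 and 5. In shEmpty 1, shEmpty 2 and shNS it came to -4.14, -3.72 and -3.82. The gap was narrower with every hairpin than in any control. Its group means differed by 1.57, close to the 1.55 of Lipa log2 CPM itself, so the gap restates the Lipa difference. With 3 libraries against 3, an exact two-sided permutation test cannot go below p = 0.1, and the difference in the gap was not tested. Reads in the 42 genes made up 0.341%, 0.394% and 0.382% of gene reads with hairpins 1, 2 and 5, and 0.380%, 0.380% and 0.374% in the controls.

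**Figure D4:**
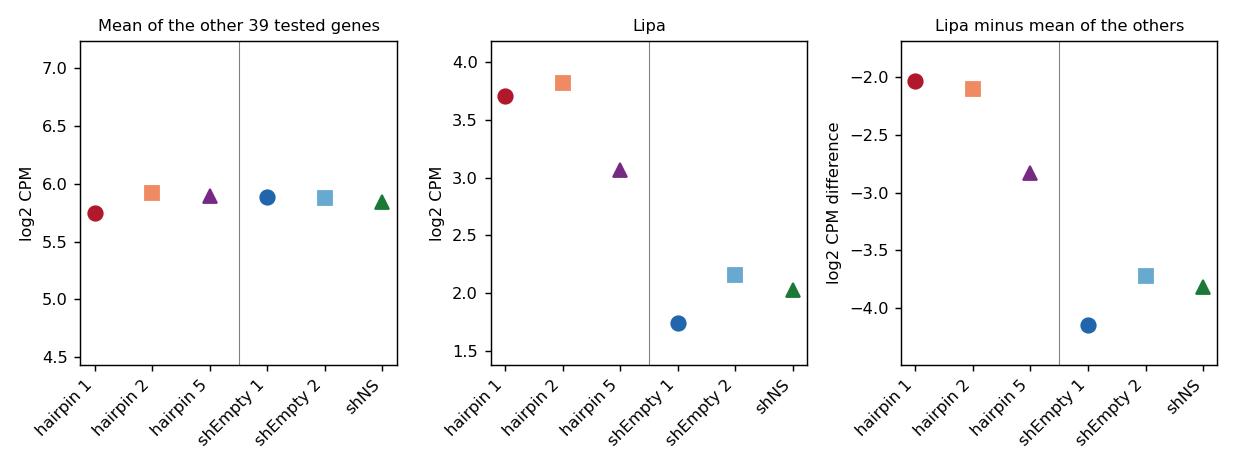
Mean log2 CPM of the 39 tested lysosomal genes other than Lipa (left), log2 CPM of Lipa (middle) and the difference between them (right) in each library, on axes of equal span that do not start at 0. The left panel spans 5.75 to 5.92 over all 6 libraries, whereas Lipa lies at 3.06 to 3.82 with the hairpins and at 1.74 to 2.16 in controls.

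Promoters were examined because the CLEAR element is the feature that lysosomal genes are known to share. RefSeq (GRCm38.p6) gave a window from 250 bases before to 50 bases after a gene start for 37 of the 42 members. The E-box CACGTG was present on either strand in 13 of the 37 (35.1%), against 11.7% of the 9505 tested genes with such a window. The CLEAR core TCACGTGA, which holds the E-box, was present in 5 (13.5%), against 2.16%, and the cAMP response element TGACGTCA in 1 (Gusb), against 3.83%. Lipa had none of these motifs in its window. The sequence upstream of the Lipa start is shown beside those of Ctsd, Mcoln1 and Gla, which hold the CLEAR core, each 5′ to 3′ and ending at the base before the annotated start, with motif matches in capitals. They lie at chr19:34527475-34527724, minus strand (Lipa), chr7:142387828-142388077, minus strand (Ctsd), chr8:3500269-3500518, plus strand (Mcoln1) and chrX:134601006-134601255, minus strand (Gla).
Lipa: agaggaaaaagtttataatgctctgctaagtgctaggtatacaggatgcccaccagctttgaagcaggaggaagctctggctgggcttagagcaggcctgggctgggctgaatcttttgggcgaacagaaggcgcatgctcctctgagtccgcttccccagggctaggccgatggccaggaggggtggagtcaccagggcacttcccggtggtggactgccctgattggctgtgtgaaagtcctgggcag
Ctsd: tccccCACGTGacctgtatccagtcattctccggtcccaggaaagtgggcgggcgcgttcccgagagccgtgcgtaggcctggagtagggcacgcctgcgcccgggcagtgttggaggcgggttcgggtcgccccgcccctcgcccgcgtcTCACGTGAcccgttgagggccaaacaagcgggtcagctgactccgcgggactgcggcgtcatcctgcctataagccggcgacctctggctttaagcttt
Mcoln1: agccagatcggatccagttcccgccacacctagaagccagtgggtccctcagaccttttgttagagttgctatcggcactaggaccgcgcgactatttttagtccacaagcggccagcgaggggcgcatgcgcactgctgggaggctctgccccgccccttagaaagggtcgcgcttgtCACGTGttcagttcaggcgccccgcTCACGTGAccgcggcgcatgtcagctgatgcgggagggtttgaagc
Gla: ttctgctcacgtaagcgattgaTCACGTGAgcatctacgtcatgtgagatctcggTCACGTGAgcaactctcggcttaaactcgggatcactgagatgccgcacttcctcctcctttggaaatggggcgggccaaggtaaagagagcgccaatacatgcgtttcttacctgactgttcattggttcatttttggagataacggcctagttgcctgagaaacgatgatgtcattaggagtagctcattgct

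The 5 members with the CLEAR core (Cln3, Ctsa, Ctsd, Gla and Mcoln1) had log2 fold changes between -0.16 and 0.086, and the 13 with an E-box between -0.25 and 0.23. None of them was called in edgeR. A match is a stretch of letters and not a measured binding site, and no match says nothing about sequence outside the window.

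The transcription factor genes of the list had levels that overlapped between the groups. Tfeb stood at 25.3, 29.3 and 24.7 CPM with hairpins 1, 2 and 5, against 25.1, 24.9 and 24.2 CPM in shEmpty 1, shEmpty 2 and shNS (log2 fold change 0.095 ± 0.11, edgeR adjusted p = 0.737). Tfe3 stood at 41.9, 38.0 and 44.7 CPM with the hairpins, against 38.0, 44.7 and 40.7 CPM in controls (log2 fold change 0.014 ± 0.10, edgeR adjusted p = 0.968). The activity of these factors is set largely by phosphorylation and nuclear entry, which RNA levels do not show.

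Among the lipid hydrolases, the acid sphingomyelinase gene Smpd1 was next to Lipa in size of change. It stood at 44.3, 47.8 and 50.2 CPM with hairpins 1, 2 and 5, against 38.0, 40.8 and 40.7 CPM in controls. The groups did not overlap, and the log2 fold change of 0.25 ± 0.09 did not pass (edgeR adjusted p = 0.208). Ppt1, the palmitoyl-protein thioesterase, had a log2 fold change of 0.23, the galactosylceramidase gene Galc one of 0.080 and the acid ceramidase gene Asah1 one of -0.15, with overlapping groups in each. Their edgeR adjusted p ran from 0.347 for Ppt1 to 0.773 for Galc.

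With all 6 libraries, neither of the cholesterol exporters, which act on the product of the lipase, was called. DESeq2 called Npc2 when hairpin 5 was left out. Npc2, the soluble cholesterol carrier of the lysosome lumen, stood at 69.2, 68.9 and 58.4 CPM with hairpins 1, 2 and 5, against 52.6, 53.7 and 55.0 CPM in shEmpty 1, shEmpty 2 and shNS. The groups did not overlap, with hairpin 5 nearest to the controls, and the log2 fold change of 0.28 ± 0.09 did not pass (edgeR adjusted p = 0.189). Npc1, the membrane transporter, stood at 47.6, 62.6 and 75 CPM with the hairpins, against 68.5, 68.6 and 68.1 CPM in controls. The controls lay within 1 CPM of each other while the hairpins fell on both sides of them (log2 fold change -0.15, edgeR adjusted p = 0.702). Without hairpin 1 its log2 fold change was 0.0079.

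Of the 9 protease genes, 7 were tested and 0 were called in edgeR. At an unadjusted p under 0.05 there was 1, Ctsz, where 16.5% of all tested genes passed. Ctsz, a cysteine carboxypeptidase (cathepsin Z), stood at 165, 156 and 155 CPM with hairpins 1, 2 and 5, against 204, 203 and 189 CPM in shEmpty 1, shEmpty 2 and shNS. All hairpin libraries lay below all controls (158.8 ± 5.79 against 198.6 ± 8.76 CPM, SD, n = 3 each), and the log2 fold change of -0.32 ± 0.08 did not pass in edgeR (adjusted p = 0.0913) but did in DESeq2. The cathepsin genes Ctsb and Ctsl, the aspartic protease gene Ctsd, the serine carboxypeptidase gene Ctsa, the tripeptidyl peptidase gene Tpp1 and the legumain gene Lgmn had log2 fold changes from -0.12 (Ctsb) to 0.086 (Ctsa), with overlapping groups in each. Exons of other genes overlap 22.3%, 31.5% and 28.2% of the exon length of Ctsa, Ctsd and Ctsl, and how reads there were assigned is not known.

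Both untested members were cysteine cathepsins near the detection limit. Ctsh had 4, 9 and 5 reads with hairpins 1, 2 and 5, against 1, 1 and 0 reads in controls. Ctss, a cathepsin of antigen-presenting cells, had 0 reads in every hairpin library, against 1, 2 and 2 reads in controls. Every hairpin library lay above the controls for Ctsh and below them for Ctss. A count of 0 allows up to 3 counts, which is 0.153 to 0.220 CPM over the depths of the 6 libraries. With counts this low, no fold change is given for either gene. When edgeR was run with no filter, all 42 members were tested and Lipa was again the one called.

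Of the 11 glycosidase genes 0 were called in edgeR and 1, Man2b1, had an unadjusted p under 0.05, as did 16.5% of all tested genes. Man2b1 (lysosomal alpha-mannosidase) and Gusb (beta-glucuronidase) were higher in every hairpin library than in any control, with log2 fold changes of 0.23 and 0.18. Glb1 (beta-galactosidase), Hexa (the alpha subunit of beta-hexosaminidase) and Manba (beta-mannosidase) lay below the controls with all hairpins, at -0.25, -0.075 and -0.15. None of these 5 passed (edgeR adjusted p = 0.258 for Man2b1, 0.389 for Gusb, 0.329 for Glb1, 0.692 for Hexa and 0.472 for Manba). Such separation held in 45.5% of the 11 glycosidase genes, against 22.4% of all tested genes. Gaa (acid alpha-glucosidase), Gla (alpha-galactosidase A), Neu1 (sialidase), Naglu (alpha-N-acetylglucosaminidase), Idua (alpha-iduronidase) and Fuca1 (alpha-fucosidase) had overlapping groups, with log2 fold changes from -0.16 (Gla) to 0.23 (Gaa). Averaged over the 11 genes, log2 CPM was 5.17, 5.30 and 5.16 with the hairpins and 5.19, 5.19 and 5.19 in controls.

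The membrane proteins likewise lay close to the controls. Lamp1, a main glycoprotein of the lysosome membrane, was below the controls in each hairpin library at 327, 304 and 324 CPM with hairpins 1, 2 and 5, against 336, 348 and 357 CPM (log2 fold change -0.12, edgeR adjusted p = 0.458). Scarb2 (LIMP-2, the carrier of glucocerebrosidase) stood at 47.3, 35.3 and 42.1 CPM with the hairpins, against 53.3, 49.1 and 47.1 CPM. The groups overlapped by 1 library, hairpin 1, and the log2 fold change of -0.26 ± 0.12 did not pass (edgeR adjusted p = 0.329). Lamp2, the tetraspanin gene Cd63, the calcium channel gene Mcoln1 and Cln3 had log2 fold changes from -0.13 (Cln3) to 0.076 (Lamp2).

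The widest spread between hairpins was in 3 members in which hairpin 1 lay furthest from the controls. Gm2a, the GM2 ganglioside activator, stood at 9.77, 34.5 and 26.2 CPM with hairpins 1, 2 and 5, against 27.3, 25.9 and 23.1 CPM in controls. Hairpin 1 was the lowest library and hairpin 2 the highest, so the group log2 fold change of -0.11 had an interval of -0.95 to 0.73. Galns, the N-acetylgalactosamine-6-sulfatase, stood at 6.47, 18.9 and 17.6 CPM with the hairpins, against 14.3, 14.9 and 13.6 CPM in controls. Sgsh, the heparan N-sulfatase, went the other way, at 17.9, 11.2 and 8.57 CPM with the hairpins, against 9.96, 11.6 and 12.2 CPM in controls, and exons of Card14 on the opposite strand overlap 21.9% of its exon length. The exact 95% Poisson intervals of hairpin 1 (8.18 to 11.6 CPM for Gm2a, 5.19 to 7.97 CPM for Galns and 15.7 to 20.2 CPM for Sgsh) did not meet those of the controls. For Gm2a the interval of hairpin 2 (31.5 to 37.7 CPM) also lay above those of the controls. With 1 library per hairpin, these differences have no replicate check.

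Psap, the precursor of the saposins and the most abundant member per length, stood at 616, 843 and 765 CPM with hairpins 1, 2 and 5, against 803, 790 and 806 CPM in controls, and Ids, the iduronate-2-sulfatase, at 106, 123 and 177 CPM against 165, 141 and 119 CPM. Hairpin 1 was the lowest library for both. The other sulfatase genes, Arsa (arylsulfatase A) and Arsb (arylsulfatase B), had log2 fold changes of -0.12 and 0.046, and exons of noncoding genes on the opposite strand overlap 59.7% of the exon length of Arsb.

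Each hairpin was set against the mean of the 3 controls as a description. Over the 40 tested members the log2 ratio had a median of -0.082 for hairpin 1, 0.098 for hairpin 2 and 0.045 for hairpin 5, beside 0.0046, 0.0049 and 0.0047 over all tested genes. With hairpin 1, 27 of the 40 were below the control mean, and with hairpins 2 and 5, 18 and 17 were. The ratio passed 2-fold in 3 tested members with hairpin 1 (Lipa, Gm2a and Galns). With each of hairpins 2 and 5 it did so in 1 tested member, Lipa. Over all tested genes the share past 2-fold was 6.45%, 5.60% and 2.89% with hairpins 1, 2 and 5. All 3 hairpins fell on the same side of the control mean in 19 of the 40 members, 8 above and 11 below, a share of 47.5% against 41.7% of all tested genes.

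The control vectors were also compared with each other. Between shNS and the shEmpty libraries, in an edgeR fit with 3 groups, 0 of the 40 members were called and 0 had an unadjusted p under 0.05, while 0% of all tested genes were called and 0.747% had an unadjusted p under 0.05. Member log2 differences ran from -0.37 (Ids) to 0.18 (Sgsh). No other tool was run for this contrast, and the single shNS library was assumed to vary like the other groups. The fit shares its spread with the hairpin libraries, between which chi-square over its degrees of freedom was 20.4 to 28.4, against 4.08 to 10.9 between controls, and 0 calls does not show that the control vectors were alike.

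Per exon length, Lipa was the least abundant of the tested members in controls. It stood there at 1.29 CPM per kilobase of annotated exon, against 291 for Psap, 156 for Lamp1, 138 for Ctsz, 122 for Cd63 and 106 for Ctsd. With the hairpins Lipa stood at 3.94 CPM per kilobase, beside 3.89 for Idua and 2.88 for Sgsh, and Psap at 270. Exon lengths came from GENCODE M21 (GRCm38) and not from the annotation used for counting.

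Genes outside the list that serve the same organelle were counted in 7 further lists. Of 147 tested genes in these lists 0 were called in edgeR and 0 in limma-voom, while DESeq2 called 2, Ulk2 higher and Nceh1 lower. Over all tested genes the shares called were 1.25% in edgeR, 1.19% in limma-voom and 5.45% in DESeq2. At an unadjusted p of 0.05, 19 of the 147 (12.9%) differed in edgeR, against 16.5% of all tested genes, and the medians of the lists lay between -0.092 and 0.032. Other lysosomal enzymes and membrane proteins (36 tested, median log2 fold change -0.027) ran from -0.61 for the cathepsin gene Ctso to 0.68 for the cathepsin K gene Ctsk. The smallest p in that list belonged to the sulfatase gene Arsg (10.8 ± 1.15 CPM with hairpins, 14.4 ± 0.292 CPM in controls, edgeR adjusted p = 0.187) and to Mfsd1, a lysosomal transporter (88.6 ± 4.11 and 75.6 ± 2.47 CPM, edgeR adjusted p = 0.205). Of the V-ATPase subunits (20 tested, median -0.023), Atp6v1h had 149.0 ± 1.28 CPM with hairpins and 124.8 ± 8.65 CPM in controls (edgeR adjusted p = 0.168), and Atp6v1g2 6.45 ± 1.36 and 4.07 ± 0.824 CPM (edgeR adjusted p = 0.230).

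In the mannose 6-phosphate tagging and sorting list (12 tested, median -0.019) the closest to the threshold were the sorting adaptor gene Gga1 (log2 fold change -0.21, edgeR adjusted p = 0.264) and Gnptab, which encodes subunits of the enzyme that makes the tag (0.28, edgeR adjusted p = 0.344). In the list of MiT/TFE and mTORC1 regulators (20 tested, median -0.019) they were Rragc, a GTPase of nutrient sensing (0.17, edgeR adjusted p = 0.332), and Lamtor4, which appears in the files as 0910001L09Rik (-0.28, edgeR adjusted p = 0.340). In the autophagy list (29 tested, median 0.021), Ulk2, an autophagy-initiating kinase gene, stood at 91.7 ± 3.11 CPM with hairpins and 69.0 ± 3.72 CPM in controls (log2 fold change 0.41 ± 0.08, edgeR adjusted p = 0.0585). Sqstm1, the p62 cargo receptor gene, stood at 361.7 ± 50.3 and 443.2 ± 17.2 CPM (log2 fold change -0.29, edgeR adjusted p = 0.232). For fusion and positioning (14 tested, median 0.032), Arl8a, a GTPase that moves lysosomes outward, had a log2 fold change of 0.32 ± 0.09 (edgeR adjusted p = 0.138) and Plekhm1, a tethering adaptor gene, one of 0.22 (edgeR adjusted p = 0.301).

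Cholesterol and neutral lipid handling (16 tested, median -0.092) holds genes that act on the same lipids as the lipase. Nceh1, a cholesteryl ester hydrolase outside the lysosome, stood at 44.7 ± 2.46 CPM with hairpins and 63.3 ± 5.39 CPM in controls (SD, n = 3 each). All hairpin libraries lay below the controls, and the log2 fold change of -0.50 ± 0.10 did not pass (edgeR adjusted p = 0.0534).

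**Figure D5:**
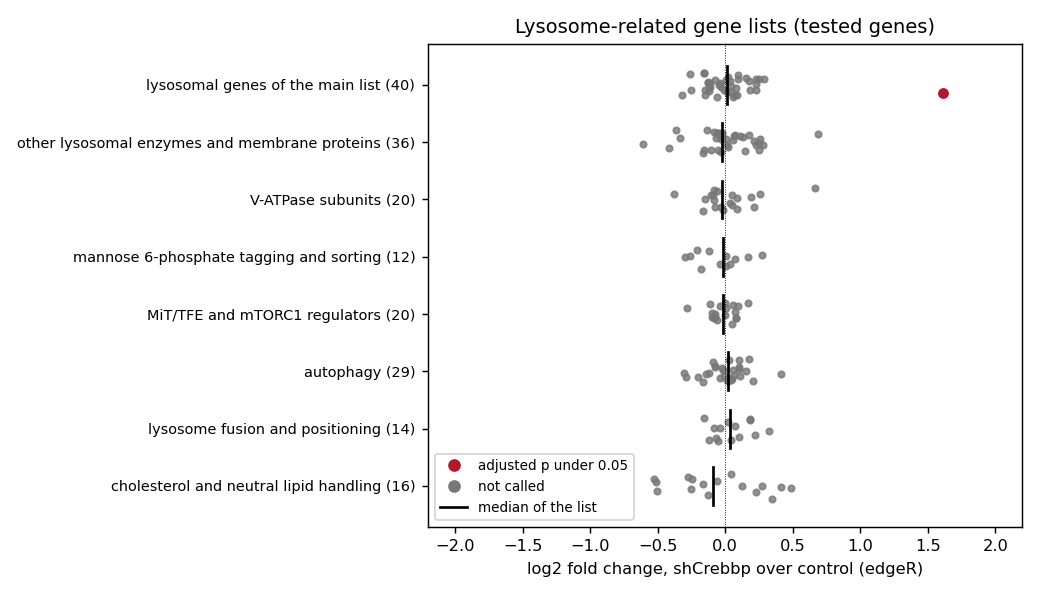
Log2 fold change (shCrebbp over control, edgeR) of every tested gene in the lysosomal list and in 7 further lists, with the number tested in brackets and a bar at each median. Lipa at 1.61 is the 1 gene called, and the medians of the 7 further lists lie between -0.092 and 0.032.

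The genes next to Lipa on chromosome 19 were looked at as local context. Of the 5 protein-coding genes on either side in the RefSeq order, Stambpl1 and Ifit2 passed the filter. Stambpl1, a deubiquitinase gene, stood at 7.45 ± 1.68 CPM with hairpins and 11 ± 0.686 CPM in controls, with all hairpin libraries below the controls (log2 fold change -0.56, edgeR adjusted p = 0.198), and Ifit2, an interferon-induced gene, at 23.7 ± 3.07 and 21.2 ± 0.270 CPM (log2 fold change 0.16, edgeR adjusted p = 0.583).

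Macrophages carry high levels of many lysosomal transcripts, so markers of other cell types were summed in each library. The 14 macrophage markers together came to 3.33 to 4.70 CPM with the hairpins and 4.96 to 5.62 CPM in controls, led by Mrc1 and C1qa, and Emr1, C1qb and Tyrobp had 0 reads in all 6 libraries. Summed fibroblast markers (9 genes, led by Dcn and Pdgfra) came to 15.6 to 65.5 CPM with the hairpins and 39.5 to 47.0 CPM in controls, with Col3a1 at 0 throughout. Of the 10 neuroendocrine markers, all tested, 0 were called in edgeR, and 5 had a positive and 5 a negative log2 fold change (median -0.014). At an unadjusted p under 0.05 there were 3, 1 higher and 2 lower, where 16.5% of all tested genes passed. The calcitonin gene Calca stood at 874.8 ± 267 CPM with the hairpins and 1803 ± 209 CPM in controls (edgeR adjusted p = 0.0558), and the adhesion molecule gene Ncam1 at 309.4 ± 85.2 and 193.1 ± 21.5 CPM (edgeR adjusted p = 0.116). The 7 epithelial markers, led by Krt8 and Epcam, came to 1155 to 1631 CPM with the hairpins and 2456 to 3065 CPM in controls. Of the 6 tested, 5 were called lower in edgeR, as were 0.978% of all tested genes. Epcam was the exception (edgeR adjusted p = 0.0971). Epithelial markers thus differed between the same groups as Lipa, in the opposite direction, and their part in the Lipa difference was not tested. Of the macrophage markers, 2 passed the filter (Mrc1 and C1qa) and neither was called. In bulk RNA, fewer cells expressing a gene and less RNA per cell cannot be told apart.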

How the data were processed

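Build mm9 and the tools HTSeq 0.6.1, TopHat2 2.0.12 and bcl2fastq 1.8.2 are listed, without roles, in the submitters' processing notes. For each library the authors deposited a table of un-normalized read counts by gene symbol. How strand and overlapping genes were handled is not stated in these sources. The 5 HTSeq summary rows (24.8% to 28.9% of all counts) were left out.

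Counts were fitted across all genes with edgeR 4.0.16 in R 4.3.3 (TMM, filterByExpr, robust quasi-likelihood test, group as the single term), with Benjamini-Hochberg adjusted p-values and a threshold of 0.05. SE values derive from the F statistic. CPM values are TMM-normalized and log2 CPM uses a prior count of 2. Alternatives used DESeq2 1.42.0, limma-voom (limma 3.58.1), other factors and filters, and omission of each library. The fitting code was tested on simulated data with known changes. No pair of libraries within a group agreed within sampling noise (chi-square over its degrees of freedom was 4.08 to 28.4), and each counted as 1 sample.

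All 42 members are named. Full values are given for members called by any tool with all 6 libraries, Tfeb, Tfe3 and the 2 of highest and lowest fold change. In the other lists the genes called, or the 2 of smallest p, are named, and the 2 most abundant of each marker list, except 2 genes that are not reported here. Further members' values, Ctso, Ctsk, Ncam1 and the neighbours of Lipa were named after their values were seen. The members and lists were chosen with earlier results of these data known. Sequences and gene order are from RefSeq GRCm38.p6, another build than that of the counts.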

Additional observations from a re-analysis of the deposited data

How the results depend on the processing

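The counts of genes called and the fold changes of Crebbp and the tested lysosomal genes were recomputed under 7 other settings with all 6 libraries and with each library left out. Markers, neighbouring genes, ratios of single hairpins, promoters and the contrast of control vectors were not. Lipa stayed called higher in edgeR under the 5 other edgeR settings, in limma-voom (adjusted p = 0.0351) and in DESeq2. Over the 25 alternatives its adjusted p ran from 6.81e-09 to 0.223. With 1 library left out, its log2 fold change ran from 1.46 to 1.804 in edgeR and from 1.43 to 1.82 over edgeR, DESeq2 and limma-voom, the last 2 tools being added here after the data were seen. Limma-voom lost the call under the same 4 omissions as edgeR (1.45, 1.67 and 1.61 without shEmpty 1, shEmpty 2 and shNS, and 1.43 without hairpin 2). The count of lysosomal genes called higher was then 0 to 1 in edgeR. It was 0 under those 4 omissions, where 2, 2, 4 and 6 members had an unadjusted p under 0.05, and all genes called were 0 to 389. Without shEmpty 1 and 2 edgeR called 0 genes while 1332 and 1238 had an unadjusted p under 0.05, limma-voom called 0, and DESeq2 called 252 and 220. DESeq2 with all libraries called 730 genes and 1 lysosomal gene lower (Ctsz), and Crebbp at -0.42 (adjusted p = 0.0163). It also called Ctsz when shNS, hairpin 1, hairpin 2 or hairpin 5 was left out. Without hairpin 5, where DESeq2 called 1085 genes, Npc2 was called too. With 1 library left out Crebbp ran from -0.53 (called, without hairpin 2) to -0.35. Genes called in the 7 other lists numbered 2 with DESeq2, 1 with upper quartile factors (Ulk2), 1 with no filter (Nceh1) and 0 to 2 with a library left out. The mean over the lysosomal genes moved by less than the SD between libraries under RLE factors, a prior count of 0.5 and each omission.

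Members near 0 changed sign without being called. Neu1 stood at 0.0023 with upper quartile factors, and Galns at -0.13 in limma-voom and -0.0055 with no filter. With 1 library left out, log2 fold changes ran from -0.0034 to 0.068 for Arsb, -0.052 to 0.13 for Cd63, -0.11 to 0.092 for Ctsd, -0.15 to 0.062 for Ctsl, -0.25 to 0.35 for Galns, -0.50 to 0.25 for Gm2a, -0.32 to 0.081 for Ids, -0.026 to 0.17 for Lamp2, -0.043 to 0.16 for Mcoln1, -0.045 to 0.16 for Naglu, -0.15 to 0.049 for Neu1, -0.32 to 0.0079 for Npc1, -0.22 to 0.0070 for Psap, -0.19 to 0.36 for Sgsh, -0.053 to 0.072 for Tfe3 and -0.10 to 0.021 for Tpp1. The cause was not tested. No paired analysis was possible because the groups share no replicate numbering, the numbers of the shCrebbp libraries being those of hairpins. At 54 to 71 reads in controls, counting error limits Lipa more than the abundant members.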
